A study of Mus musculus with 12 samples.

Results

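The genes of MHC class II antigen presentation were examined in bone marrow-derived dendritic cells (BMDCs). Members were chosen by symbol, and 10 of the 41709 genes in the files were members, namely H2-Aa, H2-Ab1, H2-Eb1, H2-DMa, H2-DMb1, H2-DMb2, H2-Oa, H2-Ob, Cd74 and Ciita. All 10 passed the filter on low counts in every comparison. BMDCs were grown from mouse bone marrow with GM-CSF for 10 days, and RNA-seq was done on 3 libraries in each of 4 groups. The groups were untreated CD18fl/fl, CD18fl/fl with LPS, untreated CD18-delta-CD11c and CD18-delta-CD11c with LPS, where LPS was given at 100 ng/mL for 24 h according to the labels. All mice, the controls included, were homozygous for floxed Itgb2, the gene of the integrin β2 chain CD18. CD18-delta-CD11c mice also carried Cre under the CD11c promoter, and CD18fl/fl mice lacked Cre. The ages of the mice are not given in the sources used here. MHCII-positive cells were isolated with magnetic beads before lysis, so that cells had been selected on the protein that the classical chain genes encode, and cells with little of it were removed. Nothing in the labels says that the libraries of a group came from separate mice or cultures, and p-values then measure only the spread between these samples. In bulk samples, fewer cells of a type cannot be told apart from less RNA per cell.

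MHC class II molecules present peptides from endosomes to CD4+ T cells. An α chain and a β chain pair in the endoplasmic reticulum with the invariant chain Cd74, which directs the complex to endosomes and is there degraded to the fragment CLIP. The DM heterodimer exchanges CLIP for other peptides, and the DO heterodimer binds DM and restrains it. Transcription of the class II genes and of Cd74 depends on the transactivator Ciita, which does not bind DNA itself but is recruited by RFX, CREB and NF-Y proteins on the S, X and Y boxes before these genes. Dendritic cells that mature in response to LPS, a ligand of TLR4, are known to move class II molecules to the surface and to lower Ciita transcription.

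The boxes that recruit Ciita are shown because they are the sequence feature that the class II genes share. RefSeq promoter sequences (GRCm38.p6, 250 bases before to 50 after each start) were found for 7 of 10 members. Both strands were searched for ATGATGC, the letters of an X2 box in these genes, and for TGATTGG, the letters of the Y box with its CCAAT element read on the other strand. These letters were chosen after the members' sequences had been seen, and the motifs do not overlap in the stretches below. Each stretch is written 5′ to 3′ on the strand of its gene, with both motifs in capitals.
H2-Oa: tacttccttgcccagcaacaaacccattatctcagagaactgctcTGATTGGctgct
H2-DMb2: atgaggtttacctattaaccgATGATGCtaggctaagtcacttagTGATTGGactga
H2-DMb1: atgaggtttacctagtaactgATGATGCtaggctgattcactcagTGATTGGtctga
H2-Ob: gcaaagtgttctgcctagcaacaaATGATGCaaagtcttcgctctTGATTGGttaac
H2-Aa: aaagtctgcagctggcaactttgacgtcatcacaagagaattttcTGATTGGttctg
H2-Eb1: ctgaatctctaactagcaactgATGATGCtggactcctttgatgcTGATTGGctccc
The stretches lie on chromosome 17 at chr17:34092289-34092345 (H2-Oa), chr17:34145112-34145168 (H2-DMb2), chr17:34153083-34153139 (H2-DMb1), chr17:34238801-34238857 (H2-Ob) and chr17:34305761-34305817 (H2-Eb1) on the plus strand, and at chr17:34287862-34287918 (H2-Aa) on the minus strand. TGATTGG stood in 6 of the 7 genes, from 45 bases before the start in H2-Oa to 92 in H2-DMb2. ATGATGC stood in H2-DMb2, H2-DMb1, H2-Ob and H2-Eb1, between 80 and 116 bases before the start and 21 to 24 bases before TGATTGG. Of all 32851 promoters, 2.46% held ATGATGC and 7.82% held TGATTGG. Only 5 (0.0152%) held ATGATGC within 40 bases before TGATTGG on the same strand, and 4 of these were the 4 members. Neither motif was found in the windows of the 2 annotated starts of H2-DMa. The search was for exact letters, so an X2 or Y box with other letters would be missed. The absence of a box in H2-Aa, H2-Oa or H2-DMa cannot be read from it. The windows of H2-Ab1, Cd74 and Ciita were not analysed here.

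**Figure D1:**
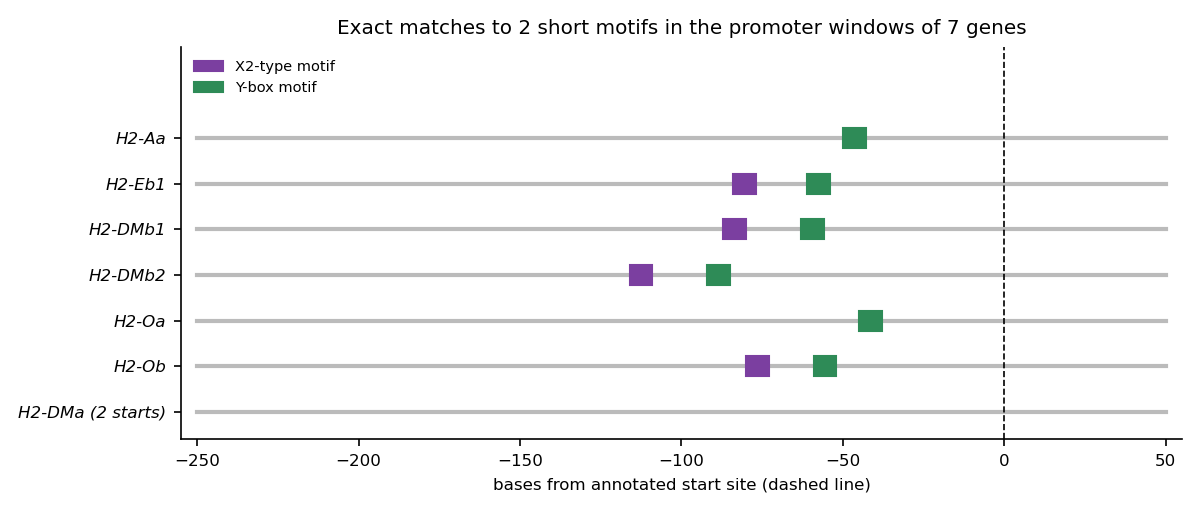
Positions of the 2 motifs (purple, the X2-type ATGATGC and green, the Y box TGATTGG) in the promoter windows of the 7 members with a RefSeq sequence, with the distance from the annotated start in bases on the x axis and 1 row per gene. The motif ATGATGC stood 21 to 24 bases before TGATTGG in H2-DMb2, H2-DMb1, H2-Ob and H2-Eb1, whereas of these exact letters H2-Oa and H2-Aa held TGATTGG alone and H2-DMa held neither. Boxes with other letters were not searched for.

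On GRCm39, the build of the coordinates in the files, 8 members lie on chromosome 17 between position 34311314, the start of H2-Oa, and position 34535648, the end of H2-Eb1. They follow each other in the order H2-Oa, H2-DMa, H2-DMb2, H2-DMb1, H2-Ob, H2-Ab1, H2-Aa and H2-Eb1, and H2-Aa alone is on the minus strand. Cd74 lies on chromosome 18 (60936920 to 60945724) and Ciita on chromosome 16 (10297923 to 10346282), both on the plus strand. Reads were counted over exons and introns, and the intron share of the members' total gene reads was 7.05% or less in every library.

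Total gene reads ranged from 29689149 to 34037178 per library, and 3 reads corresponded to 0.0752 to 0.135 CPM (reads scaled to library size with TMM factors). No molecular identifiers were used, and the floor therefore reflects counting error alone. Itgb2 had a mean of 394 CPM in untreated CD18fl/fl and 158 in untreated CD18-delta-CD11c BMDCs, and 202 and 108, respectively, with LPS. Without the replicate block, Itgb2 did not pass the threshold (edgeR adjusted p = 0.0887 untreated and 0.428 with LPS), and with the block it was lower in CD18-delta-CD11c BMDCs in both states (adjusted p = 0.00392 and 0.0201). Replicate 3 stood apart in each group. The SD of the log2 differences over 13752 genes was 0.762 to 1.11 between replicates 1 and 2, and 1.36 to 1.51 between either of them and replicate 3. All 8 dendritic cell markers were detected, with sums of 1030 to 4680 CPM per library. B cells also express class II genes, and the 12 B cell markers, all of them detected in every group, summed to 30.2 to 470 CPM in replicates 1 and 2 but to 5.24 to 7.98 CPM in replicate 3. The 10 macrophage markers summed to 1830 to 4250 CPM in untreated and 547 to 1730 CPM in LPS-treated libraries. For 12 neutrophil markers, sums were 1720, 526 and 158 CPM in untreated CD18fl/fl and 337, 446 and 108 in untreated CD18-delta-CD11c. With LPS, they were 62.7 to 113 CPM. All 9 tested between the untreated genotypes were lower in CD18-delta-CD11c, as were 52.7% of genes. Of these 9, 0 were called without the block and 2 with it, beside 0% and 20.2% of genes. The part of these cells in the results below was not tested.

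The classical chains and Cd74 were among the most abundant transcripts. Levels of different genes were compared as TPM, which corrects for exon length. H2-Ab1 ranked between place 4 and place 13 of 41709 genes over the 12 libraries, H2-Aa between 5 and 45, H2-Eb1 between 9 and 55, and Cd74 between 11 and 107. The DM genes followed at places 233 to 1525, then H2-Oa at 936 to 2537, H2-Ob at 1571 to 2998 and Ciita at 3357 to 5390. The 10 members together made up 2.28% to 5.18% of a library's TPM.

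In untreated CD18fl/fl BMDCs, mean levels were 10786 ± 2103 TPM for H2-Ab1, 9402 ± 2642 for H2-Aa and 7944 ± 847 for Cd74 (SD, n = 3), and these neighbours overlapped. H2-Eb1 followed with 5510 ± 1797 TPM, below every Cd74 value. Among the low members, H2-DMb1 had 576 ± 53.0 TPM and stood apart from H2-DMa (287 ± 28.0), which overlapped with H2-DMb2 (251 ± 8.29). H2-Oa (90.9 ± 48.2 TPM) and H2-Ob (37.6 ± 1.70) overlapped, and Ciita was last with 18.4 ± 7.28 TPM. Cd74 stood at place 3 of the members in untreated CD18fl/fl and at place 4 in each of the other groups, where its mean was 5328 ± 751 TPM (CD18fl/fl with LPS), 4320 ± 1046 (untreated CD18-delta-CD11c) and 2460 ± 1190 (CD18-delta-CD11c with LPS). In CD18-delta-CD11c BMDCs with LPS, every Cd74 value lay below every H2-Eb1 value (4987 ± 494 TPM), the reverse of the order in untreated CD18fl/fl, and H2-DMa (70.2 ± 8.11) lay below every value of H2-DMb2 (108 ± 15.6).

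**Figure D2:**
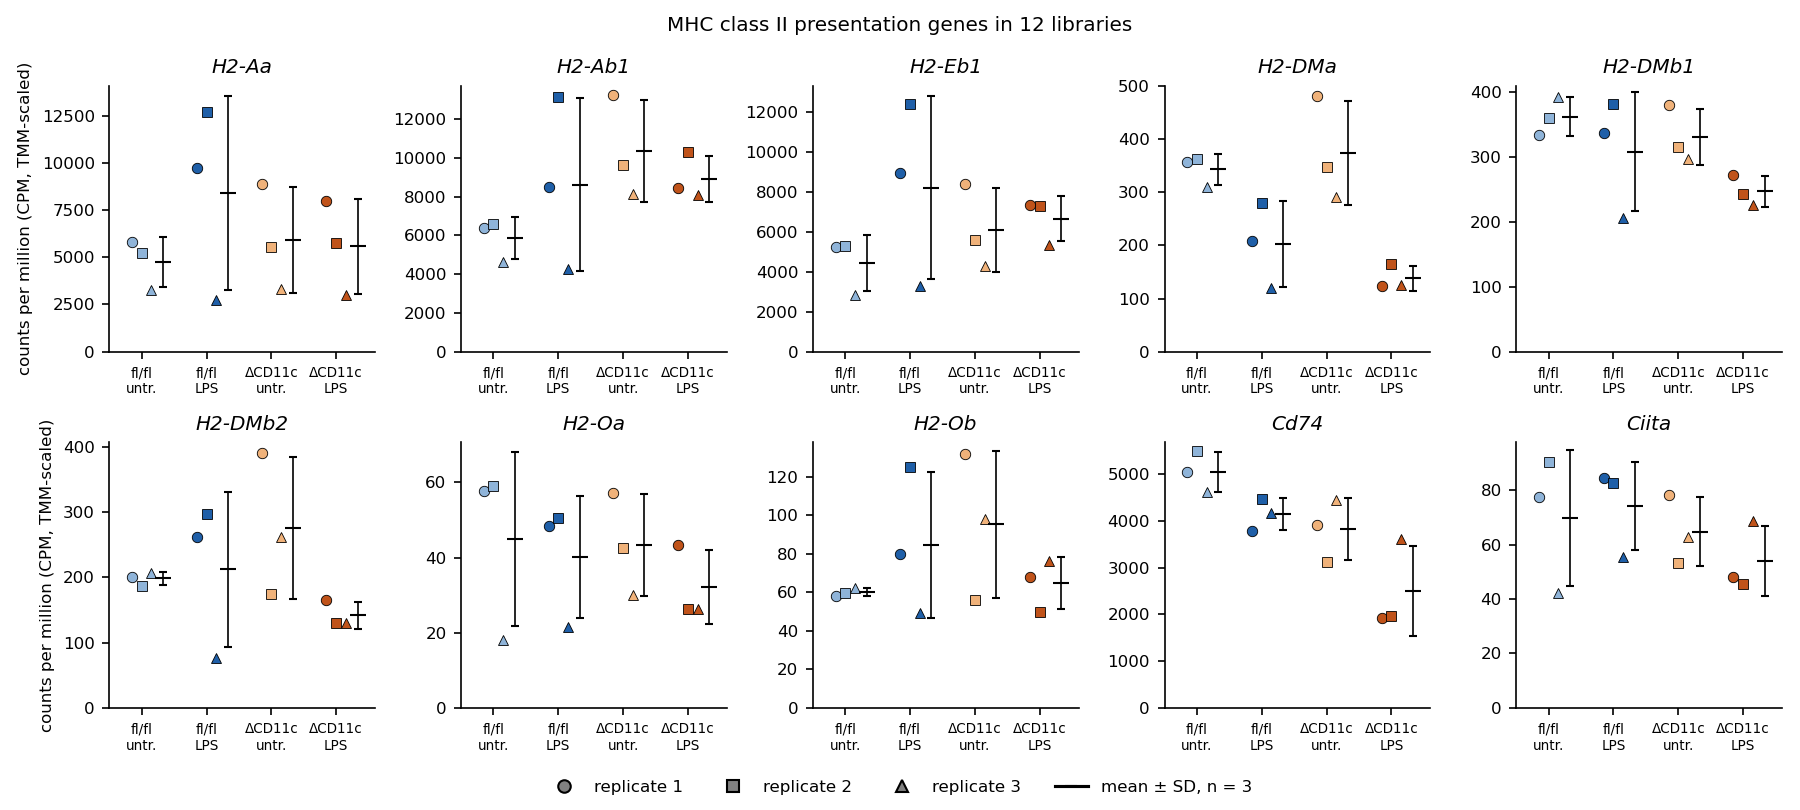
Level of each of the 10 members in every library, as CPM after TMM scaling on linear axes that start at 0, by group (fl/fl for CD18fl/fl, ΔCD11c for CD18-delta-CD11c), with 1 symbol per replicate number and the mean ± SD of the 3 libraries beside them. H2-DMa was lower in every LPS-treated than in every untreated library of the same genotype, and Cd74 was lower in every CD18-delta-CD11c than in every CD18fl/fl library of the same state.

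LPS was compared with no treatment within each genotype, and the genotypes were compared within each state, each on 6 libraries by edgeR's quasi-likelihood test. Of all the members and comparisons, 1 passed the threshold. H2-DMa fell with LPS in CD18-delta-CD11c BMDCs. With LPS in CD18fl/fl, 0 of 10 members were called, where 3.89% of the 12744 genes tested were. In CD18-delta-CD11c, it was 1 of 10, beside 3.99% of 12687 genes. Between the genotypes, edgeR called 0 of 10 members and 0% of genes in either state, while 2159 of 12876 genes were at an unadjusted p under 0.05 in untreated BMDCs and 1212 of 12441 with LPS. In the same order, DESeq2 called 0 members beside 16.3% of genes, 2 (H2-DMa and H2-DMb2) beside 13.3%, 1 (H2-Ab1) beside 9.52% and 0 beside 3.68%.

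The replicate numbers were taken to pair the libraries, although the labels do not say so, and a block for the number gave further calls. With the block, 12.8% of genes and 0 members were called for LPS in CD18fl/fl, and 20.2% of genes and 2 members (H2-DMa and H2-DMb2, both lower) for LPS in CD18-delta-CD11c. H2-Ab1 was the 1 member called between the genotypes in untreated BMDCs with the block, where 20.2% of genes were, and 0 members were called with LPS, beside 10.1% of genes. In each comparison, the share of members called by edgeR with the block on 6 libraries was at or below that of all genes. Other fits with the block called other members. DESeq2 with the block called H2-Eb1 (higher) and H2-DMa (lower) for LPS in CD18fl/fl, beside 25.7% of genes, and H2-DMa, H2-DMb1, H2-DMb2 and Cd74 (all lower) for LPS in CD18-delta-CD11c, beside 27.9%. Between the genotypes, it called H2-Ab1, H2-Eb1 and H2-Ob (all higher in CD18-delta-CD11c) untreated, beside 29.1%, and Cd74 (lower) with LPS, beside 19%. The block with an offset for exon length called 0 members for LPS in CD18fl/fl (14.3% of genes), H2-DMa and H2-DMb2 in CD18-delta-CD11c (21.3%), and Cd74 (lower in CD18-delta-CD11c) between the genotypes untreated (13.1%) and with LPS (7.87%). On all 12 libraries with the block, H2-DMa was called as lower with LPS in both CD18fl/fl (24.5% of genes) and CD18-delta-CD11c (21.9%), and 0 members between the genotypes (8.11% and 4.53%).

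Without a threshold, the direction of the members was as follows. With LPS, 4 of 10 members had a negative log2 fold change in CD18fl/fl, as did 50.8% of all genes, and 9 of 10 in CD18-delta-CD11c, beside 50.9%. The median log2 fold change of the members was 0.10 and −0.48, respectively, with medians of −0.02 and −0.01 over all genes. Between the genotypes, 4 members were lower in untreated CD18-delta-CD11c BMDCs (52.7% of genes) and 9 were lower with LPS (56.9%), with medians of 0.27 and −0.44. Members share regulators, so their directions are not independent. Scaling to library size alone moved the median of all genes to −0.32, −0.23, −0.44 and −0.37 and turned the direction of H2-DMb2 and Ciita (LPS in CD18fl/fl), H2-Eb1 (LPS in CD18-delta-CD11c), H2-Aa and H2-DMa (genotypes untreated) and H2-Ab1 (genotypes with LPS), none of which had passed the threshold there. It also moved the genes called for LPS from 263 higher and 233 lower to 143 and 304 in CD18fl/fl, and from 283 and 223 to 186 and 300 in CD18-delta-CD11c.

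**Figure D3:**
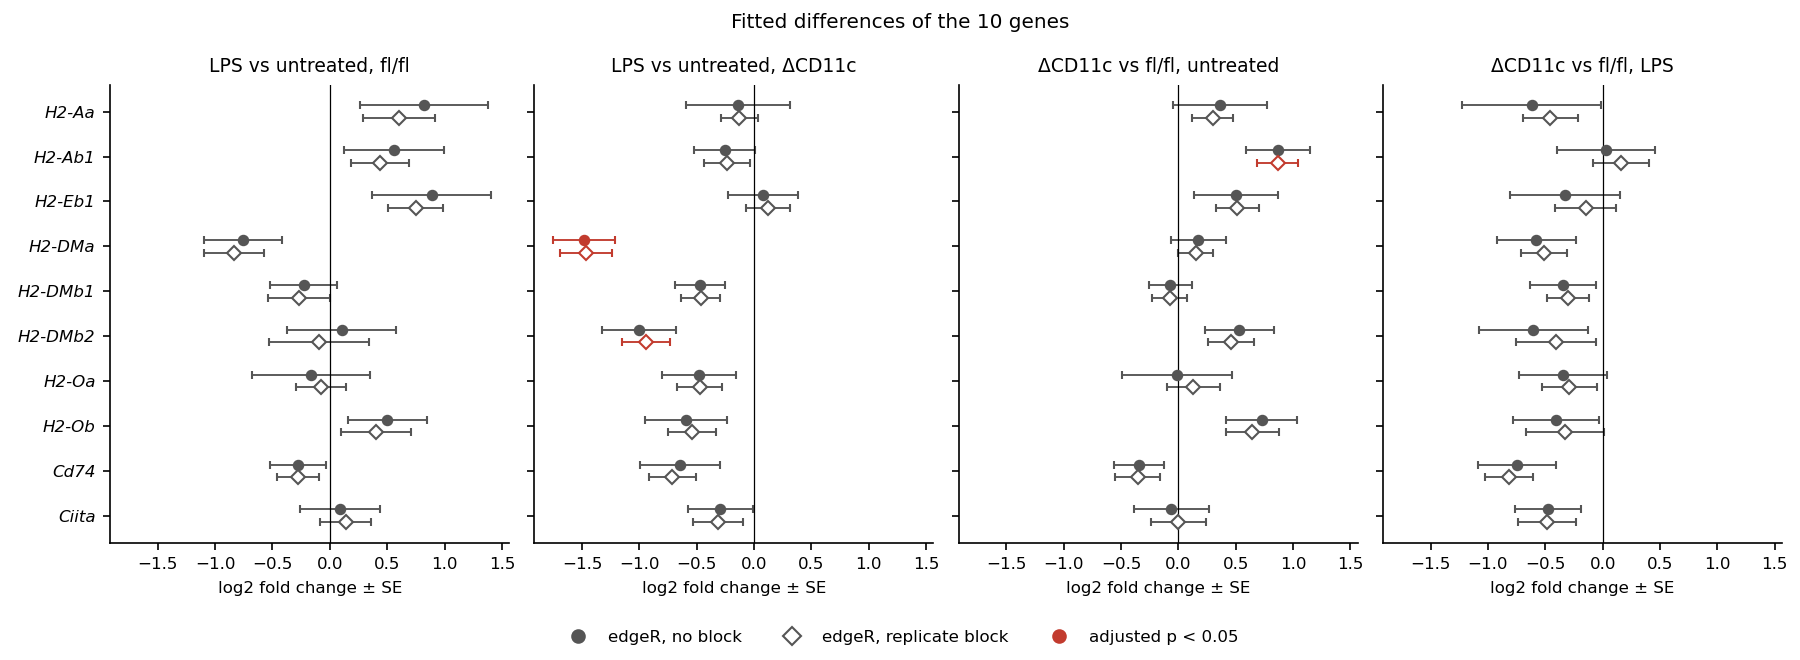
Log2 fold change of each member in the 4 comparisons, with bars for 1 standard error, from edgeR on 6 libraries per comparison without (filled circles) and with the replicate block (open diamonds). Values past the threshold are in red, namely H2-DMa with LPS in CD18-delta-CD11c BMDCs (−1.48 without and −1.46 with the block), and with the block alone H2-DMb2 in the same comparison (−0.94) and H2-Ab1 between the untreated genotypes (0.86).

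The classical chains H2-Aa (I-A α), H2-Ab1 (I-A β) and H2-Eb1 (I-E β) form the peptide-binding molecules. H2-Ab1 had 6389, 6565 and 4613 CPM in untreated CD18fl/fl (replicates 1, 2 and 3), 8471, 13164 and 4237 with LPS, 13255, 9608 and 8145 in untreated CD18-delta-CD11c and 8430, 10284 and 8080 with LPS. Every untreated CD18-delta-CD11c value in CPM was above every untreated CD18fl/fl value, and the LPS-treated groups overlapped. In TPM, the untreated groups overlapped too (8426 to 12460 in CD18fl/fl and 11675 to 16491 in CD18-delta-CD11c). The untreated log2 difference between the genotypes was 0.87 (SE 0.278, adjusted p = 0.208), and with the block 0.86 (SE 0.181, adjusted p = 0.0177), with 1.05, 0.55 and 0.82 in the 3 same-numbered pairs. Together with an offset for exon length, the blocked value was 0.36 (adjusted p = 0.201), and the call was lost. With LPS, the genotype difference of H2-Ab1 was 0.03 (SE 0.425, adjusted p = 0.987).

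H2-Aa had 5790, 5227 and 3238 CPM in untreated CD18fl/fl BMDCs and 9752, 12716 and 2714 with LPS. In CD18-delta-CD11c it had 8887, 5516 and 3303 untreated and 7975, 5741 and 2986 with LPS. LPS values were above the untreated ones in replicates 1 and 2 of CD18fl/fl and below in replicate 3, and in CD18-delta-CD11c both groups covered nearly the same range. The log2 fold change with LPS was 0.82 (SE 0.560, adjusted p = 0.408) and −0.14 (SE 0.452, adjusted p = 0.899), respectively.

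H2-Eb1 had 5240, 5294 and 2816 CPM in untreated CD18fl/fl BMDCs and 8972, 12404 and 3297 with LPS. It had 8411, 5578 and 4316 CPM in untreated CD18-delta-CD11c and 7347, 7311 and 5351 with LPS. It was higher with LPS in all 3 pairs of CD18fl/fl, although the groups overlapped. Its log2 fold change was 0.89 (SE 0.518, adjusted p = 0.341) in CD18fl/fl and 0.08 (SE 0.304, adjusted p = 0.916) in CD18-delta-CD11c. The untreated genotype differences were 0.36 (SE 0.411, adjusted p = 0.707) for H2-Aa and 0.50 (SE 0.364, adjusted p = 0.523) for H2-Eb1.

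The LPS values of all 3 chains in CD18fl/fl depended on replicate 3, which stood apart over all genes. Untreated, its sums were low for markers of B cells (6.39 CPM), dendritic cells (1030, against 2860 and 2790) and macrophages (1830, against 4030 and 4250). Its mast cell and basophil marker sum was higher (86.7 CPM, against 43.9 and 52.1). In replicates 1 and 2 alone, 47.5% of genes and 6 members were called for LPS in CD18fl/fl. H2-Aa (log2 fold change 1.03, adjusted p = 0.00302), H2-Eb1 (1.02, 0.00351) and H2-Ab1 (0.74, 0.0283) were higher in that fit, as were H2-DMb2 and H2-Ob, and H2-DMa was lower. In CD18-delta-CD11c, 15.9% of genes were called and 2 members, H2-DMa and Cd74, both of them lower. Between the genotypes, 10.6% of genes and 0 members were called in untreated BMDCs, and 4.22% of genes and 3 members (H2-DMb2, Cd74 and Ciita, all lower in CD18-delta-CD11c) with LPS. B cell markers moved with LPS in the same libraries, from 146 and 470 CPM to 30.2 and 62.5 in replicates 1 and 2 of CD18fl/fl, opposite to the classical chains, and their part in these values was not tested. H2-Eb2, a β chain gene next to H2-Eb1 that is no member, also set replicate 3 apart, with 129, 72.2 and 1.42 CPM in untreated CD18fl/fl BMDCs, and was called in no comparison.

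The DM genes encode the peptide editor, H2-DMa its α chain and H2-DMb1 and H2-DMb2 its β chains. H2-DMa had 357, 363 and 310 CPM in untreated CD18fl/fl BMDCs and 208, 280 and 120 with LPS. It had 482, 347 and 292 CPM in untreated CD18-delta-CD11c and 123, 165 and 126 with LPS. LPS-treated and untreated values did not overlap in either genotype. In CD18-delta-CD11c, H2-DMa fell with LPS by 1.48 on the log2 scale (SE 0.273, adjusted p = 0.0378, 0.00716 with the block), and the same-numbered pairs differed by −1.97, −1.08 and −1.21. The call was lost when replicate 1 or 2 of the untreated group (adjusted p = 0.143 and 0.122) or of the LPS-treated group (0.147 and 0.135) was left out, with log2 fold changes from −1.63 to −1.28 over the 6 fits that each left out 1 library. In CD18fl/fl, the log2 fold change was −0.76 (SE 0.341, adjusted p = 0.231, 0.0857 with the block), and pairs differed by −0.78, −0.38 and −1.37. It passed there with DESeq2 and the block (−0.80, adjusted p = 0.0313) and on all 12 libraries with the block (−0.82, adjusted p = 0.0267), and the response of H2-DMa was not shown to differ between the genotypes (interaction −0.68, SE 0.436). The macrophage marker sum was also lower with LPS in both genotypes, and its part in the H2-DMa values was not tested.

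H2-DMb1 and H2-DMb2 are close copies, and of all 59-base windows (the read length) of their annotated transcripts, 19.8% of H2-DMb1 and 16.2% of H2-DMb2 occurred in the other gene. Between 92.4% and 95.0% of their reads were unique, so how reads were split between both is uncertain. H2-DMb2 had 201, 188 and 207 CPM in untreated CD18fl/fl, 263, 298 and 77.2 with LPS, 392, 175 and 261 in untreated CD18-delta-CD11c and 166, 130 and 130 with LPS. Its LPS-treated and untreated values did not overlap in CD18-delta-CD11c, where the log2 fold change was −1.004 (SE 0.322, adjusted p = 0.132), and with the block −0.94 (SE 0.205, adjusted p = 0.0214). In CD18fl/fl it was higher with LPS in replicates 1 and 2 and lower in replicate 3 (0.10, SE 0.473, adjusted p = 0.918).

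H2-DMb1 had 333, 360 and 393 CPM in untreated CD18fl/fl, 337, 382 and 206 with LPS, 380, 316 and 298 in untreated CD18-delta-CD11c and 273, 243 and 226 with LPS. The last of these groups lay below the untreated CD18-delta-CD11c values. The log2 fold change there was −0.47 (SE 0.219, adjusted p = 0.275), and −0.23 in CD18fl/fl (SE 0.293, adjusted p = 0.677). When both β genes were summed, a feature added after the values had been seen, the log2 fold change with LPS in CD18-delta-CD11c was −0.69 (adjusted p = 0.172, 0.0391 with the block), and in CD18fl/fl −0.10 (adjusted p = 0.891). Between the genotypes, none of the DM genes was called, with log2 differences from −0.07 to 0.53 in untreated and from −0.60 to −0.34 in LPS-treated BMDCs.

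H2-Oa and H2-Ob encode the α and β chains of DO, the DM modulator, which is known from B cells and some dendritic cells. H2-Oa had 57.8, 59.0 and 18.2 CPM in untreated CD18fl/fl BMDCs and 48.3, 50.6 and 21.5 with LPS. In CD18-delta-CD11c it had 57.2, 42.5 and 30.1 CPM untreated and 43.4, 26.4 and 26.3 with LPS. Replicate 3 was the lowest in all 4 groups, as it was for the B cell marker sum. H2-Ob did not share this order, with 58.0, 59.7 and 62.2 CPM in untreated CD18fl/fl, 80.0, 125 and 49.1 with LPS, 132, 55.8 and 98.4 in untreated CD18-delta-CD11c and 67.8, 50.01 and 76.5 with LPS. In CD18-delta-CD11c, both were lower with LPS in all 3 pairs, with log2 fold changes of −0.48 (SE 0.322, adjusted p = 0.444) for H2-Oa and −0.59 (SE 0.355, adjusted p = 0.390) for H2-Ob. The B cell marker sum of these libraries was also lower with LPS in each pair, at 292, 380 and 7.34 CPM untreated and 36.1, 82.1 and 5.24 with LPS, and its part in the DO values was not tested. In the other 3 comparisons, edgeR on 6 libraries without the block called neither gene. The untreated genotype difference of H2-Ob was 0.73 (SE 0.312, adjusted p = 0.304), and passed with DESeq2 and the block (0.65, adjusted p = 0.0314).

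In CPM, Cd74 was the member whose values were ordered by both treatment and genotype. TPM, to which no TMM factor was applied, ordered H2-DMb1 in this way too. H2-DMb1 had 517 to 620 TPM untreated and 308 to 432 with LPS in CD18fl/fl. In CD18-delta-CD11c, it had 346 to 408 TPM untreated and 218 to 259 with LPS. Cd74 had 5033, 5481 and 4625 CPM in untreated CD18fl/fl BMDCs and 3787, 4464 and 4162 with LPS. In CD18-delta-CD11c it had 3918, 3122 and 4444 CPM untreated and 1930, 1955 and 3619 with LPS. Every same-numbered pair was lower with LPS in both genotypes, and lower in CD18-delta-CD11c in both states. The groups did not overlap in 3 of the 4 comparisons, and overlapped for LPS in CD18-delta-CD11c, where the replicate 3 value with LPS was above the replicate 2 value without. None of these differences passed the threshold without the block in edgeR, but several did in other fits. The log2 fold change with LPS was −0.28 in CD18fl/fl (SE 0.244, adjusted p = 0.519) and −0.64 in CD18-delta-CD11c (SE 0.348, adjusted p = 0.341), with adjusted p = 0.333 and 0.0518 under the block. In CD18-delta-CD11c, it passed with DESeq2 and the block (−0.71, adjusted p = 0.00818) and in replicates 1 and 2 alone (−0.96, adjusted p = 0.0299). The genotype difference was −0.34 in untreated BMDCs (SE 0.221, adjusted p = 0.472), and −0.77 with the length offset and block (adjusted p = 0.0406). With LPS, it was −0.74 (SE 0.342, adjusted p = 0.548), or −0.82 with the block (SE 0.206, adjusted p = 0.0501). It passed with DESeq2 and the block (−0.78, adjusted p = 0.00271), with the length offset and block (−1.09, adjusted p = 0.0194) and in replicates 1 and 2 alone (−1.12, adjusted p = 0.0295). The LPS-treated pairs of the genotypes differed by −0.97, −1.19 and −0.20, so replicate 3 had the smallest difference.

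**Figure D4:**
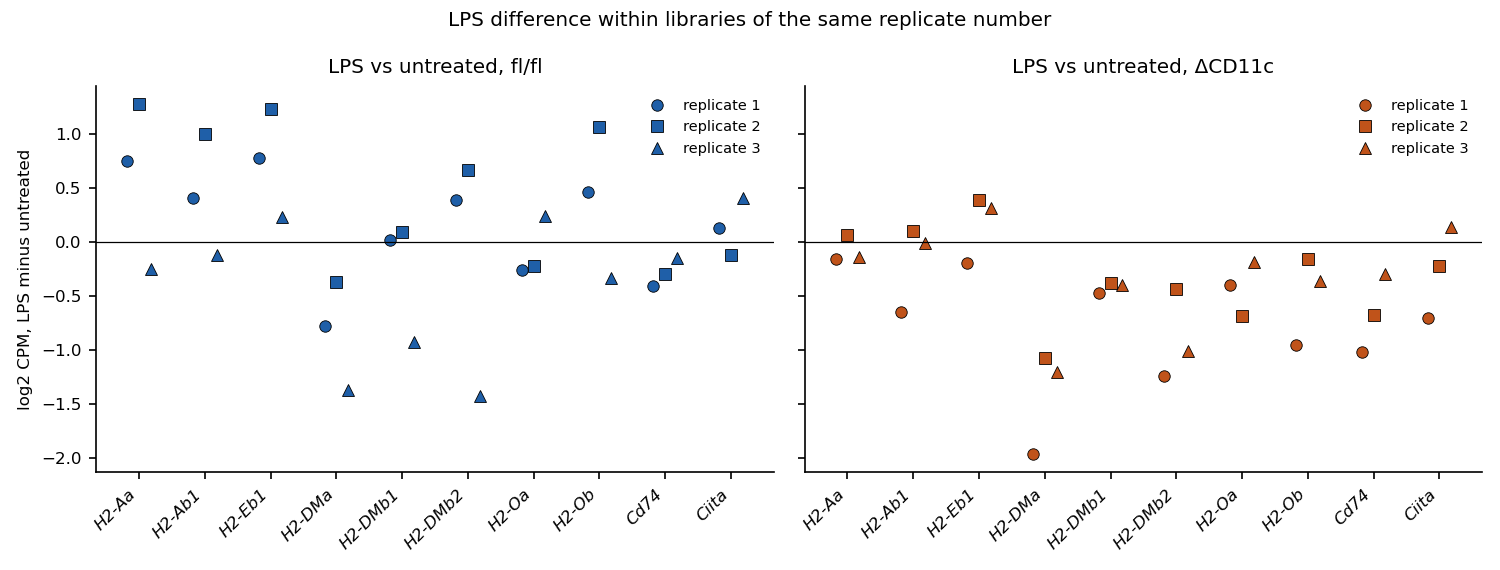
Difference in log2 CPM between the LPS-treated and the untreated library of the same replicate number for each member, in CD18fl/fl (left) and CD18-delta-CD11c (right), with 1 symbol per replicate number. All points of H2-DMa and Cd74 lie below 0 in both genotypes, whereas H2-DMb2 in CD18fl/fl has 2 points above 0 (0.39 and 0.67) and replicate 3 below (−1.43).

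Groups that did not overlap in CPM were no more frequent among the members than among all genes in most comparisons. With LPS in CD18fl/fl, it was 2 of 10 members (H2-DMa and Cd74, both lower), beside 29.5% of genes. In CD18-delta-CD11c, it was 3 (H2-DMa, H2-DMb1 and H2-DMb2, all lower), beside 28.1%. Between the genotypes, H2-Ab1 (higher) and Cd74 (lower) did not overlap in untreated BMDCs, beside 24.8% of genes, and Cd74 (lower) with LPS, beside 17.6%. In all 3 pairs, 6 members were lower with LPS in CD18-delta-CD11c (the 3 DM genes, H2-Oa, H2-Ob and Cd74), where 26.3% of genes were, and 2 in CD18fl/fl (H2-DMa and Cd74), beside 28.3%. H2-Eb1 was the 1 member higher with LPS in all 3 pairs of CD18fl/fl, beside 24.6% of genes. In CPM, Cd74 alone was lower in CD18-delta-CD11c in all 3 pairs, beside 32.2% of genes untreated and 24.5% with LPS. In TPM, H2-DMa and H2-DMb1 were lower in all pairs of both states too, and H2-Aa, H2-Oa and Ciita in those with LPS. The share of all genes was not computed in TPM. The 3 classical chains were higher in all 3 untreated pairs in CPM, beside 23% of genes. TMM factors were 1.21 to 1.26 in untreated CD18fl/fl and 0.940 to 1.07 in untreated CD18-delta-CD11c. In TPM, replicate 2 was lower in CD18-delta-CD11c for H2-Ab1 (12460 and 12189), H2-Aa (10660 and 7517) and H2-Eb1 (6755 and 4754). Replicate 3 was lower for H2-Aa as well (6366 and 5083), and the other pairs were higher.

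Ciita, the class II transactivator, had 77.5, 90.4 and 42.1 CPM in untreated CD18fl/fl BMDCs and 84.5, 82.8 and 55.6 with LPS. In CD18-delta-CD11c it had 78.4, 53.2 and 62.8 CPM untreated and 48.0, 45.5 and 68.9 with LPS. All groups overlapped, and replicate 3 was the lowest in CD18fl/fl but the highest in CD18-delta-CD11c with LPS. The log2 fold change with LPS was 0.09 (SE 0.345, adjusted p = 0.902) in CD18fl/fl and −0.29 (SE 0.283, adjusted p = 0.611) in CD18-delta-CD11c. The genotype difference was −0.06 (SE 0.326, adjusted p = 0.946) in untreated and −0.48 (SE 0.285, adjusted p = 0.649) in LPS-treated BMDCs.

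Whether LPS changed the members differently in the genotypes was tested by the interaction on all 12 libraries, where 0% of 13752 genes were called (97 at an unadjusted p under 0.05), also 0% with the block and with replicates 1 and 2 alone, and 0.00733% by DESeq2 (0.0291% with the block). No member was among them. The interaction was negative in 10 of 10 members and in 47.8% of all genes, with a median of −0.72 in the members and 0.02 in all genes. A negative value means a less positive or more negative log2 fold change with LPS in CD18-delta-CD11c. H2-DMa, H2-DMb1, H2-Oa and Cd74 had negative log2 fold changes in both genotypes, and the estimate was the more negative in CD18-delta-CD11c. For H2-DMa, it was −0.76 in CD18fl/fl and −1.48 in CD18-delta-CD11c. The test did not show that these estimates differed. Single interaction values ranged from −0.19 (SE 0.347) for H2-DMb1 to −1.06 for H2-DMb2 (SE 0.611) and H2-Ob (SE 0.517), and each adjusted p was above 0.99. Leaving out single libraries turned the sign of H2-Oa alone.

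Ratios within a library do not depend on its scaling, but their size depends on the exon lengths used for TPM. They were computed for 7 pairs chosen after values had been seen, and are given without a test. H2-DMa relative to H2-Ab1 (TPM) was 0.0253, 0.0251 and 0.0306 in untreated CD18fl/fl, 0.0112, 0.00968 and 0.0128 with LPS, 0.0165, 0.0164 and 0.0163 in untreated CD18-delta-CD11c and 0.00666, 0.00727 and 0.00712 with LPS. No 2 of the groups compared overlapped. Ratio means with LPS were 0.415 times the untreated ones in CD18fl/fl and 0.428 times in CD18-delta-CD11c, and those of CD18-delta-CD11c were 0.607 (untreated) and 0.625 (LPS) times those of CD18fl/fl.

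The ratio of H2-DMa to its partners, H2-DMb1 plus H2-DMb2, also differed with LPS without overlap, from 0.380, 0.375 and 0.293 to 0.201, 0.239 and 0.235 in CD18fl/fl and from 0.367, 0.404 and 0.305 to 0.161, 0.251 and 0.203 in CD18-delta-CD11c. It overlapped between the genotypes. The ratio of Cd74 to H2-Ab1 was 0.673, 0.713 and 0.858 in untreated CD18fl/fl and 0.252, 0.276 and 0.466 in untreated CD18-delta-CD11c. With LPS, it was 0.383, 0.290 and 0.843 in CD18fl/fl and 0.196, 0.162 and 0.383 in CD18-delta-CD11c, lower in CD18-delta-CD11c in each pair, with groups that overlapped. The α to β ratio of I-A, H2-Aa to H2-Ab1, was 0.975, 0.855 and 0.756 in untreated CD18fl/fl and 0.720, 0.617 and 0.435 in untreated CD18-delta-CD11c, and did not overlap either. In the other 3 ratios, H2-Eb1 to H2-Ab1, H2-DMb2 to H2-DMb1 and H2-Oa to H2-Ob, the genotypes overlapped in both states. H2-Eb1 to H2-Ab1 was nevertheless lower in CD18-delta-CD11c in all 3 pairs of both states, and with LPS it was higher without overlap in CD18-delta-CD11c, at 0.427, 0.390 and 0.356 untreated and 0.585, 0.476 and 0.444 with LPS.

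**Figure D5:**
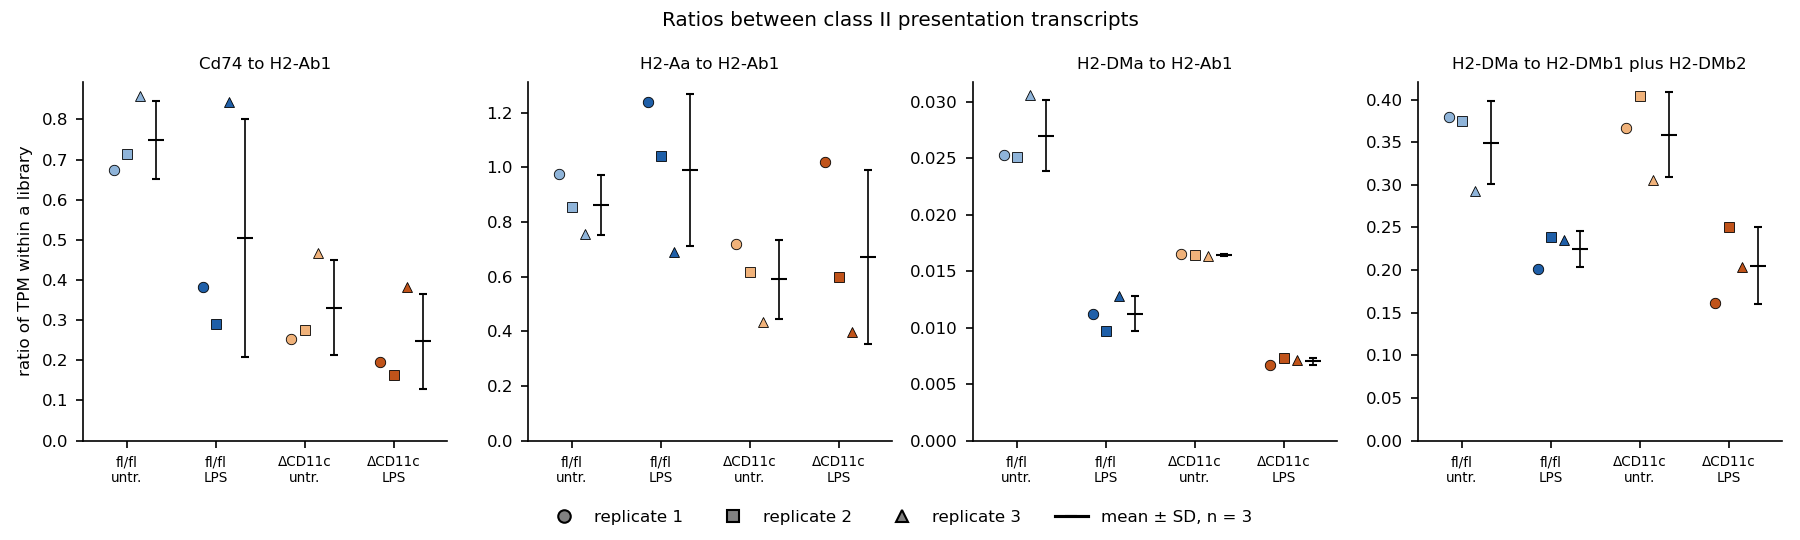
TPM ratios between members within each library (4 of the 7 computed), by group, on linear axes that start at 0, with 1 symbol per replicate number and the mean ± SD of 3 libraries. The ratio of H2-DMa to H2-Ab1 lies between 0.0251 and 0.0306 in untreated CD18fl/fl and between 0.00666 and 0.00727 in LPS-treated CD18-delta-CD11c BMDCs, and the ratio of Cd74 to H2-Ab1 does not overlap between the untreated genotypes.

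Other genes of the pathway were counted from lists that hold no member. The 7 genes of factors that bind the S, X and Y boxes (RFX, CREB and NF-Y) had 0 calls with LPS in CD18fl/fl, with or without the block, and Creb1 (0.69) was higher in CD18-delta-CD11c with the block. Of 11 regulators upstream of Ciita, 3 were called higher and 1 lower with LPS in CD18fl/fl with the block, beside 12.8% of all genes. The interferon regulatory factors Irf1 (log2 fold change 1.65) and Irf8 (1.66) were higher there, and the interferon-γ receptor chain Ifngr1 (−1.46) was lower. In CD18-delta-CD11c with the block, 5 were called higher and 2 lower, beside 20.2% of all genes. Irf1 (1.38) and Irf8 (1.98) were higher there and Ifngr1 (−1.55) was lower. Without the block, 0 of the 11 were called in CD18fl/fl and 1 in CD18-delta-CD11c. No change of Ciita itself was called. Among 8 genes of invariant chain and antigen processing, Sppl2a, the intramembrane protease that removes the last Cd74 fragment, rose with LPS in both genotypes (1.58, SE 0.319, adjusted p = 0.0461 in CD18fl/fl, and 1.47, SE 0.310, adjusted p = 0.0473 in CD18-delta-CD11c).

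A list of 9 other genes in or near the class II region held mostly genes of class I presentation (Tap1, Tap2, Tapbp, Psmb8, Psmb9 and H2-K1), together with Brd2, Btnl1 and Btnl2. Tap1, a subunit of the peptide transporter, rose with LPS in both genotypes (1.99, SE 0.355, adjusted p = 0.0358, and 1.73, SE 0.291, adjusted p = 0.0308), as 1 of 7 tested genes of this list in CD18fl/fl and 1 of 8 in CD18-delta-CD11c. With the block, it was 4 of 7 and 5 of 8 genes, all higher, beside 12.8% and 20.2% of all genes. Among genes of class II traffic and turnover, Cd83, which opposes class II ubiquitination, was higher with LPS with the block in both genotypes, and with the block Cd83 and Cd9 were higher in CD18-delta-CD11c in both states, as was Cd63 in untreated BMDCs. Between the genotypes, 0 genes of these lists were called without the block. With it, 1 of the tested region genes was higher (Psmb9) and 3 were lower (Tap2, Tapbp and Brd2) in untreated CD18-delta-CD11c BMDCs, and 2 were lower (Tap2 and Tapbp) with LPS. Among the antigen processing genes, Ctsb and Ctsd, lysosomal cathepsins, were lower in LPS-treated CD18-delta-CD11c than CD18fl/fl BMDCs with the block (−0.74 and −0.62). The share of all genes called with the block was 20.2% untreated and 10.1% with LPS. With the block, Rfx5, a subunit of the X box factor (−0.94, adjusted p = 0.0450), was lower in LPS-treated CD18-delta-CD11c BMDCs, and Jak1, Ifngr2 and Irf8 were lower in untreated ones.

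Correlations between the members were taken over the 12 libraries. These correlations describe libraries that share groups, replicate numbers and composition. The classical chains varied together (r = 0.91 for H2-Aa with H2-Eb1, 0.87 for H2-Ab1 with H2-Eb1 and 0.73 for H2-Aa with H2-Ab1). So did the DM genes (0.84 for H2-DMa with H2-DMb1, 0.85 for H2-DMb1 with H2-DMb2 and 0.74 for H2-DMa with H2-DMb2). These were not separate sets, because H2-Aa with H2-Oa (0.754) and H2-DMb2 with H2-Ob (0.805) exceeded the lowest of these values. Within groups, after the group means had been removed, H2-Ab1 and H2-DMa had r = 0.98, but only 0.26 over all libraries. Cd74 did not follow the classical chains (r = −0.19 with H2-Aa, −0.34 with H2-Ab1 and −0.30 with H2-Eb1) and was closer to Ciita (0.59). The genes most like the mean profile of the classical chains and Cd74 were Hsp90ab1 (r = 0.93), Vps28 (0.92), Arhgdib (0.91), H4c9 (0.90) and Arl6ip1 (0.90), among 13742 genes over 12 libraries. Those most like Ciita were Slc22a5 (0.88), Pakap_3 (0.87), Tspyl1 (0.84), Rslcan18 (0.83) and Ptcd1 (0.82).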

How the data were processed

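RNA-seq of MHCII-positive BMDCs was used, with 3 libraries in each of 4 groups and groups and replicate numbers taken from the labels. According to the study's methods, RNA (10 ng) was made into poly(A)-selected libraries, and single-end reads of 59 bases were mapped to GRCm39 and counted with CLC Genomics Workbench at its default settings (GRCm38 in the submitters' processing notes, whereas coordinates in the files are those of GRCm39). The authors deposited raw counts per gene (total and unique gene reads). Total gene reads were used, of which 95.1% to 96.2% per library were unique. TPM values, used for levels between genes and for ratios, are those the authors deposited from the same software, based on exon reads and exon length. CPM was computed here.

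Counts were tested with edgeR 4.0.16 in R 4.3.3 (quasi-likelihood test, TMM, filterByExpr with minimum count 10, Benjamini-Hochberg adjustment over all genes tested, threshold 0.05) on the 6 libraries of a comparison, and for the interaction on all 12. Standard errors are the log2 fold change divided by the square root of F. Log2 CPM values used a prior count of 2. The lowest chi-squared per degree of freedom between libraries was 43.5, so none was a copy. The replicate numbers come from the titles. Deviations from group means correlated between same-numbered libraries (0.265 to 0.716), and between −0.571 and 0.334 otherwise, so the numbers were taken to pair the libraries, and a block was used as an alternative. These ranges overlapped, and same-numbered values were 0.524 to 0.716 for replicate 3. Replicates 1 and 2 were not always told apart. For LPS in CD18fl/fl, r was 0.265 between both replicates 2, and 0.278 between LPS-treated replicate 2 and untreated replicate 1. The procedure was tested on simulated data.

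The genes named are all members, Itgb2, up to 3 called genes with the largest change per list and comparison, and the 5 genes most like each of 2 profiles. H2-Eb2 was named after its values had been seen, and 1 listed gene is not reported here. The members and lists were chosen with earlier results of these data known. Alternatives were DESeq2 1.42.0, RLE, library size scaling, no filter, unique reads, all 12 libraries, a replicate block, an exon length offset (lowess, span 0.3), replicates 1 and 2 alone, each library left out, and the summed H2-DMb genes.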

Additional observations from a re-analysis of the deposited data

How the results depend on the processing

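Of 895 recomputed log2 fold changes of members, 813 kept their direction and side of the threshold, 29 newly passed it, 4 lost it (all H2-DMa with LPS in CD18-delta-CD11c, with a library left out) and 49 changed sign, none of which had passed the threshold. In edgeR on 6 libraries, the replicate block changed the call of no members but H2-DMb2 (LPS in CD18-delta-CD11c) and H2-Ab1 (untreated genotypes). Low depth was no limit for the members, each with 18.2 CPM or more in every library. The causes of the differences were not tested. For LPS in CD18fl/fl, 496 genes were called, against 1976 with DESeq2, 3269 with DESeq2 and the block, 1068 with all 12 libraries, 1627 with the replicate block, 3365 with all 12 and the block, 1738 with the length offset and block, 6140 with replicates 1 and 2 alone, and 0 to 3268 with a library left out. Members called were 0, against 2 with DESeq2 and the block, 1 with all 12 and the block, 6 with replicates 1 and 2, and 0 to 1 with a library left out. For LPS in CD18-delta-CD11c, 506 genes were called, against 1681, 3539, 983, 2560, 3016, 2568 and 2049 in the same order of settings, 805 without the filter, and 0 to 1033 with a library left out. Members called were 1, against 2 with DESeq2, 4 with DESeq2 and the block, 2 with the block, with the length offset and block, and with replicates 1 and 2, and 0 to 1 with a library left out. For the untreated genotypes, 0 genes were called, against 866, 3308, 19, 2606, 1115, 1608 and 1383 in that order, and members were 0, against 1, 3 with DESeq2 and the block, and 1 with the block (H2-Ab1) and 1 with the length offset and block (Cd74). For the genotypes with LPS, 0 genes were called, against 313, 1993, 45, 1262, 623, 930 and 523, 1 without the filter, and 0 to 1 with a library left out, and members were 0, against 1 with DESeq2 and the block and with the length offset and block, and 3 with replicates 1 and 2. For the interaction, 0 genes were called, against 1 with DESeq2 and 4 with DESeq2 and the block.

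Signs turned in these log2 fold changes. For LPS in CD18fl/fl, they were H2-DMb1 with replicates 1 and 2 (0.051), H2-DMb2 with DESeq2 and the block (−0.066), library size scaling (−0.29), the replicate block (−0.10) and the length offset and block (−0.15), and Ciita with library size scaling (−0.25) and replicates 1 and 2 (−0.0081). For LPS in CD18-delta-CD11c, it was H2-Eb1 with library size scaling (−0.13) and replicates 1 and 2 (−0.035). For the untreated genotypes, they were H2-Aa with library size scaling (−0.044) and the length offset and block (−0.25), H2-DMa with library size scaling (−0.225), H2-DMb1 with replicates 1 and 2 (0.062), H2-Oa with DESeq2 (0.0054), DESeq2 and the block (0.14), RLE (0.0053), unique reads (0.0024), the block (0.13) and all 12 with the block (0.046), and Ciita with DESeq2 and the block (0.0040), the block (0.00057) and the length offset and block (0.31). For the genotypes with LPS, it was H2-Ab1 with library size scaling (−0.17), no filter (−0.010), the length offset and block (−0.20) and replicates 1 and 2 (−0.24). With a library left out, ranges that crossed 0 were, for LPS in CD18fl/fl, −0.21 to 0.50 (H2-DMb2), −0.54 to 0.13 (H2-Oa) and −0.18 to 0.31 (Ciita), for LPS in CD18-delta-CD11c, −0.47 to 0.25 (H2-Aa) and −0.11 to 0.36 (H2-Eb1), for the untreated genotypes, −0.048 to 0.66 (H2-Aa), −0.048 to 0.34 (H2-DMa), −0.18 to 0.0097 (H2-DMb1), −0.395 to 0.23 (H2-Oa) and −0.34 to 0.16 (Ciita), for the genotypes with LPS, −0.32 to 0.46 (H2-Ab1) and −0.73 to 0.086 (H2-Eb1), and for the interaction, −0.68 to 0.013 (H2-Oa).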
